A study of Mus musculus with 6 samples.

Results

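Dermokine (*Dmkn*), suprabasin (*Sbsn*), keratinocyte differentiation-associated protein (*Krtdap*) and *2610528A11Rik* encode small proteins that stratified epithelia secrete. These 4 genes were followed in organoids of mouse esophagus and stomach, 3-dimensional cultures in Matrigel that keep the epithelium of their tissue. They were found by gene name among the non-control probes of the arrays and are carried by 5 of 55681 probes and 4 of 34298 gene names. The genes were singled out with their esophagus and stomach values known, so the difference between the tissues describes them here and was not tested.

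Total RNA was hybridized to 6 single-color Agilent mouse expression arrays, 3 of esophageal and 3 of stomach organoids at passage 0. Each of mice 1, 2 and 4 gave a culture of either tissue, and all cultures were harvested on day 8 except the stomach organoids of mouse 4, harvested on day 7. The methods of the study name wild-type C57BL/6 female mice and an age of 14 to 20 weeks at euthanasia, without tying strain or age to these 3 animals, and the labels call all 6 cultures controls. Stomach organoids grew from glands of the corpus in medium conditioned with WNT3A and R-spondin1 and supplemented with gastrin. Esophageal organoids grew from dissociated epithelial cells in medium with forskolin and without WNT3A or R-spondin1. Both media held EGF, noggin, FGF-10, nicotinamide, N-acetylcysteine, a TGF-β receptor kinase inhibitor, the ROCK inhibitor Y-27632, B27 and N2. Tissue and medium changed together, so their parts cannot be told apart, and in bulk RNA neither can fewer cells of a type and less RNA per cell. The values below are the deposited log2 intensities, on which 1 unit is a doubling of the signal. Levels of different probes are not set against each other, because probes differ in how brightly they bind.

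*Sbsn*, *Dmkn* and *Krtdap* lie side by side in mammalian genomes in a group of genes for secreted products of stratified epithelium. Their proteins appear as keratinocytes leave the basal layer: dermokine and suprabasin are glycine-rich secreted proteins of the suprabasal layers, and KRTDAP is a short peptide of differentiating keratinocytes. *2610528A11Rik* lies on another chromosome. RefSeq lists it under the synonym *Gpr15l*, the ligand of GPR15, a receptor that guides T cells to mucosa and skin, and the peptide is known from the epithelium of skin and upper digestive tract.

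The probes show which part of each gene was read, and the first 30 of the 60 bases of each are given in its 5′ to 3′ direction, in capitals for the stretch that both *Dmkn* pieces shown hold.
Dmkn A_55_P2140592: GGCATCTGGAGCTTCCTACTCTCCAgtttc
Dmkn A_55_P2133405: aacgaGGCATCTGGAGCTTCCTACTCTCCA
Sbsn A_52_P573336: ccaccatgccctaaactgatgcccaggcaa
Krtdap A_51_P146223: gctacaataattaccctaccgcaacagagg
2610528A11Rik A_66_P108468: taacacttaaccactggtctccaaaccaac

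In the array's mm9 coordinates the *Sbsn* probe covered chr7:31540994-31541053, the *Dmkn* probes chr7:31566018-31566077 and chr7:31566013-31566072, and the *Krtdap* probe chr7:31574534-31574762, all on the plus strand. The *Krtdap* probe stretched over 229 bases of the genome for its 60 bases and so crossed an intron. The *2610528A11Rik* probe lay at chr14:37915367-37915426 on the minus strand. From the *Sbsn* probe to the *Krtdap* probe the chromosome 7 trio spanned 33769 bases, with 24959 bases between the *Sbsn* and *Dmkn* probes and 8456 bases between the *Dmkn* and *Krtdap* probes. The *Dmkn* probes shared 55 of 60 bases and are therefore 2 readings of 1 stretch of transcript rather than of 2 isoforms. The array annotation assigned them to 4 RefSeq transcripts of *Dmkn*, the *Sbsn* and *Krtdap* probes to 2 transcripts each and the *2610528A11Rik* probe to 1, so isoforms were not separated. Whether a probe lies in coding or untranslated sequence was not analysed here.

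The arrays carried the markers of their tissues. Of 9 squamous markers 8 were higher in esophageal organoids, such as *Krt5* by 11.93 on the log2 scale, well above background on only 1 of 3 stomach arrays. Of 16 gastric columnar markers 15 were higher in stomach organoids, such as *Tff2* by at least 6348.0-fold on the deposited scale. The exceptions were *Epcam*, which did not pass (log2 difference -0.72, limma adjusted p = 0.0623), and *Trp63*, for which the brightest of 4 probes was higher in stomach (log2 difference -1.22, limma adjusted p = 0.0249) while the other 3 were higher in esophagus by at least 49.6-fold to at least 299.0-fold. None of 9 fibroblast and smooth muscle markers passed, and of 10 immune and endothelial markers *Itgam* alone did, being higher in stomach. These calls compare the tissues and do not show presence or absence. On each array 0 to 2 of the 9 and 5 or 6 of the 10 were well above background. *Itgam*, on its brightest of 3 probes, was so in both tissues, and *Ptprc* in neither. Whether such cells were present was not tested. The share of spots flagged well above background ran from 45.5% to 51.1% over the arrays, with none saturated. Across the 34298 genes, each read by its brightest probe, limma with Benjamini-Hochberg adjustment called 7.15% higher in esophagus and 7.7% higher in stomach. The esophagus array of mouse 4 was the only one on its slide, so this slide and this culture cannot be told apart.

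All 5 probes read higher in every esophagus array than in every stomach array, as did 16.9% of all genes, and since the genes were chosen on this contrast nothing is read from that count. *Krtdap* was not well above background in stomach and *2610528A11Rik* was dim there, and both were within the brightest part of the array in esophagus. *Dmkn* and *Sbsn* had a clear signal in both tissues.

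**Figure D1:**
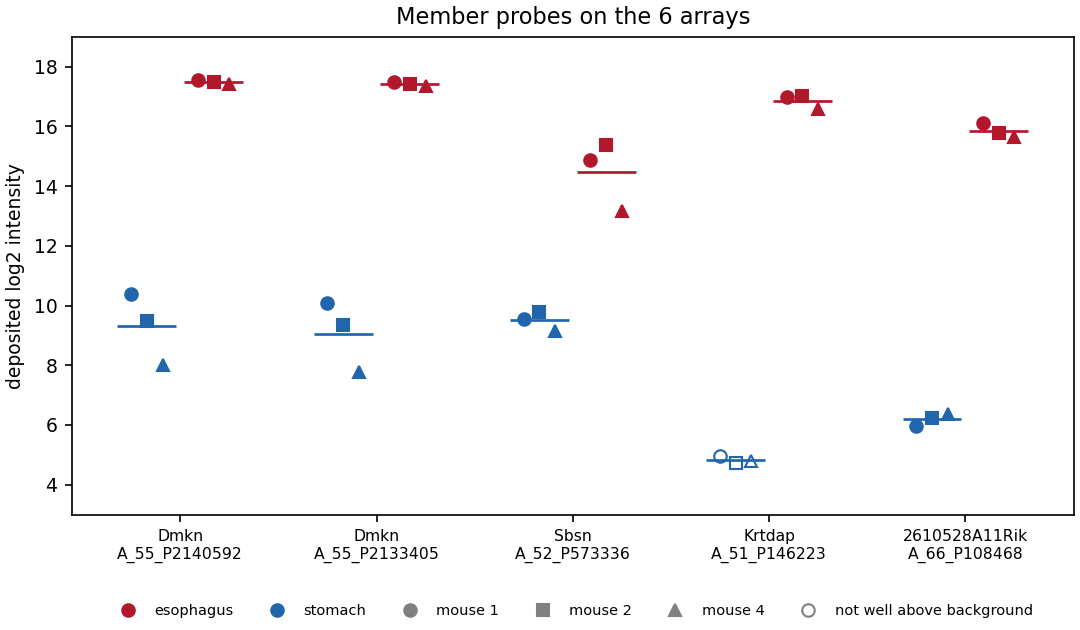
Deposited log2 intensity (vertical axis) of the 5 probes of *Dmkn*, *Sbsn*, *Krtdap* and *2610528A11Rik* on 3 esophagus arrays (red) and 3 stomach arrays (blue). Each point is 1 array, its shape gives the mouse, the horizontal line is the mean of 3 arrays and an open symbol is a spot not well above background. The *Dmkn* points lie close together in esophagus and far apart in stomach, the *Sbsn* points the other way round, and the *Krtdap* probe is open on all 3 stomach arrays.

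*Dmkn* read 17.54, 17.49 and 17.43 in the esophageal organoids of mice 1, 2 and 4, on its brighter probe A_55_P2140592. In stomach organoids the same probe read 10.40, 9.48 and 8.02. The esophagus values were nearly level and stood just below the ceiling of the scale, 17.88 on every array after quantile normalization, whereas each stomach value was far above background and the 3 differed 5.22-fold. The means were 17.48 ± 0.05 (SD, n = 3) in esophagus and 9.30 ± 1.20 (SD, n = 3) in stomach, a difference of 8.18 or 290.3-fold, and 7.54 without the stomach array of mouse 4. Within mice 1, 2 and 4 the log2 difference was 7.13, 8.01 and 9.41. The second probe, A_55_P2133405, gave 17.50, 17.42 and 17.35 in esophagus and 10.07, 9.35 and 7.76 in stomach, a difference of 8.36, and the probes stayed within 0.34 of each other on every array.

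How far apart the stomach values of *Dmkn* lay depended on the scale. Before normalization the mean intensities of probe A_55_P2140592 were 1302, 370.2 and 350.3 in stomach organoids of mice 1, 2 and 4, so that mice 2 and 4 were alike and mouse 1 stood apart. After subtraction of background by the scanner software and scaling to the 75th percentile of each array, the log2 values were 1.85, 0.94 and -0.54, in the order of the deposited ones. Mouse 1 was thus highest on all 3 scales, and the step between mice 2 and 4 was present on the corrected and scaled values and not on the raw ones. In esophagus the raw intensities were 203166, 184004 and 201644, bright but not saturated.

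*Sbsn* read 14.87, 15.39 and 13.18 in esophageal organoids of mice 1, 2 and 4 and 9.56, 9.79 and 9.15 in stomach organoids. Here the spread was on the esophagus side, where the array of mouse 4 was well below the other 2, and the stomach values were close together. The means were 14.48 ± 1.15 (SD, n = 3) and 9.50 ± 0.32 (SD, n = 3), a log2 difference of 4.98 or 31.5-fold, the smallest of the 4 genes. Within mice 1, 2 and 4 it was 5.30, 5.59 and 4.03. The dip of mouse 4 was also present in the raw mean intensities of 32950, 44113 and 11425. Without the esophagus array of mouse 4 the difference was 5.62.

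*Krtdap* read 16.97, 17.02 and 16.59 in esophageal organoids of mice 1, 2 and 4. On the stomach arrays its probe read 4.95, 4.71 and 4.78, not well above background on any of the 3. Its stomach level therefore has only an upper bound, and the esophagus mean of 16.86 ± 0.23 (SD, n = 3) was at least 4004.3-fold higher on the deposited scale, 11.97 in log2. With an offset of 50 in the background correction the measured difference was 10.84, so the bound holds for the deposited values alone. The bound sets the mean of the 3 esophagus arrays against, on each stomach array, the higher of the probe's own value and the dimmest signal that counted as well above background.

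*2610528A11Rik* read 16.10, 15.78 and 15.63 in esophageal organoids of mice 1, 2 and 4 and 5.98, 6.24 and 6.37 in stomach organoids. All 3 stomach spots were well above background, though dim, with raw mean intensities of 63.2, 55.1 and 101.1. The means were 15.84 ± 0.24 (SD, n = 3) and 6.20 ± 0.20 (SD, n = 3), a log2 difference of 9.64 or 798.7-fold. Within mice it was 10.12, 9.55 and 9.26. For a signal this dim the size of the difference follows the background correction, as the plot by setting shows.

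**Figure D2:**
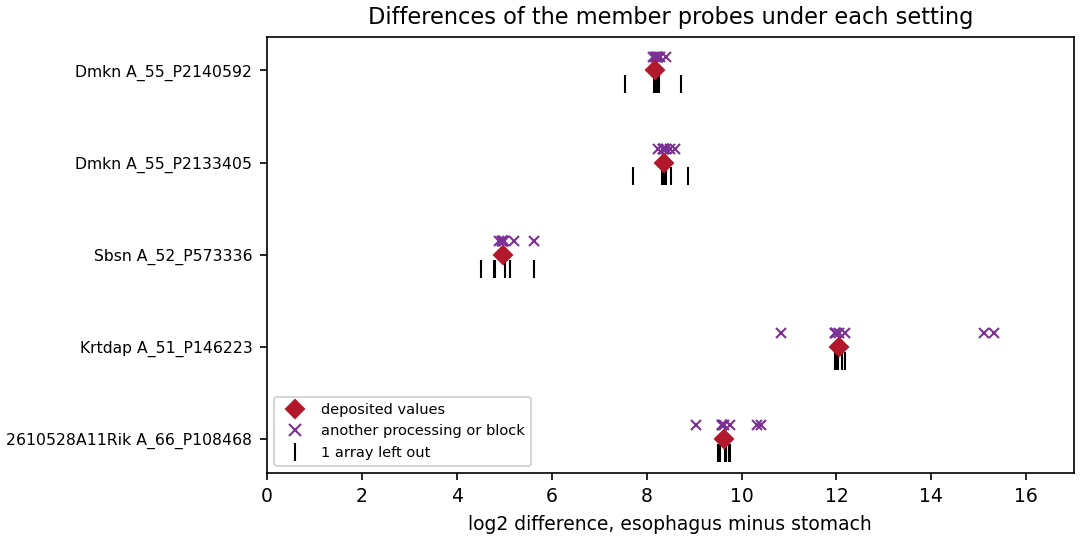
Log2 difference, esophagus minus stomach (horizontal axis), of each of the 5 probes with the deposited values (diamonds), with another processing or a block in the fit (crosses) and with 1 array left out (ticks). *Dmkn* and *Sbsn* stay within 7.54 to 8.87 and 4.52 to 5.62, while *Krtdap*, not well above background in stomach, ranges from 10.84 to 15.31 and *2610528A11Rik* from 9.03 to 10.41.

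The 4 genes were chosen with their values known, so how far they differed between mice of 1 tissue is described here and was not tested. Among 16584 genes well above background on all 3 esophagus arrays the median SD was 0.29, and 2.86% of genes had a smaller SD than *Dmkn* (0.05), 37.5% a smaller one than *Krtdap* (0.23) and 39.2% a smaller one than *2610528A11Rik* (0.24). *Sbsn* stood at the other end, since 96.9% of genes varied less than its SD of 1.15. Among 17537 genes well above background on all 3 stomach arrays the median SD was 0.24. There 99% of genes varied less than *Dmkn* (1.20), against 66.6% for *Sbsn* (0.32) and 39.2% for *2610528A11Rik* (0.20). *Dmkn* was thus among the most even genes of one tissue and the most uneven of the other. Its lowest stomach value was in mouse 4, whose stomach culture alone was harvested on day 7, so mouse and day cannot be told apart. The evenness of *Dmkn* in esophagus was read close to the ceiling of the scale, and what part the ceiling had in it was not tested.

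On the deposited scale all 4 genes were lowest in the esophageal organoids of mouse 4. Below the mean of mice 1 and 2 they lay 1.06-fold for *Dmkn*, 3.85-fold for *Sbsn*, 1.32-fold for *Krtdap* and 1.24-fold for *2610528A11Rik*. On this array 29.8% of the genes well above background were at their lowest, and 39.6% of the 2354 other such genes called higher in esophagus. With the scanner software's background-subtracted signal and 75th percentile scaling *Dmkn* was lowest in mouse 2 instead, and the count was 3 of 4. On raw mean intensities both *Dmkn* (184004 on probe A_55_P2140592) and *2610528A11Rik* (59999) were lowest in mouse 2.

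In a list of other secreted and calmodulin-like proteins of stratified epithelium, most genes higher in esophagus were also lowest on this array. The list held antimicrobial defensins, protease inhibitors, interleukin-1 family cytokines and calmodulin-like proteins, and 22 of its 26 names were on the array, the other 4 being newer names of interleukin-36 genes that the array gives under older ones. By limma 15 of the 22 (68.2%) were higher in esophagus, 2 (9.09%) were higher in stomach and 5 did not pass, against 7.15% and 7.7% of all genes, and the median log2 difference was 4.73 against 0.03 over all genes. Of the 15 genes higher in esophagus 13 were lowest on the array of mouse 4, where their median stood at -1.88 from the mean of mice 1 and 2. *Sbsn* was close to this at -1.94, but the median of the 4 genes was -0.36. Among squamous markers higher in esophagus 5 of 8 were lowest there (median -0.28). In the list of *Gpr15* and mucosal chemokines described below it was 1 of 2 (median -0.10). The difference between these groups was not tested. For the 15 genes the count was again 13 under each of the 5 other background corrections and scalings of the arrays. *Il1f6*, an interleukin-36 cytokine, read 11.78, 13.93 and 6.95 in mice 1, 2 and 4, and *Wfdc12*, a small protease inhibitor, 15.41, 13.75 and 7.92. Both were picked for their size after the values had been seen, and both calls were lost in several of the fits that left out 1 array.

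**Figure D3:**
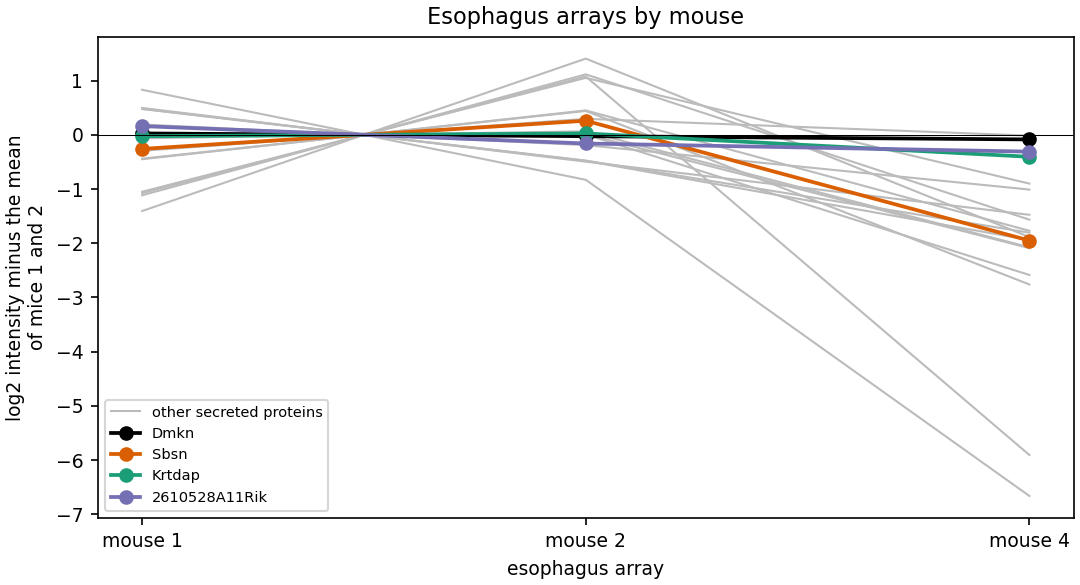
Log2 intensity on each esophagus array minus the mean of mice 1 and 2 (vertical axis) for *Dmkn*, *Sbsn*, *Krtdap* and *2610528A11Rik* (colored lines) and for the 15 genes of other secreted and calmodulin-like proteins that were higher in esophagus (grey lines). On the array of mouse 4 *Sbsn* lies at -1.94, amid the grey lines, and *Dmkn* at -0.09.

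The largest esophagus differences of that list were of the size seen for the 4 genes. *Defb14*, a defensin, was higher by at least 2209.7-fold (limma adjusted p = 4.12e-07), a bound on the deposited scale because it was not well above background in stomach. *Slpi*, the secretory leukocyte protease inhibitor, was higher by 10.87 ± 0.57 (SE, limma adjusted p = 1.27e-05), with 2 of 3 stomach arrays well above background. *Calml3*, a calmodulin-like protein, and *Spink5*, the inhibitor of epidermal kallikreins, were higher by at least 763.3-fold and at least 371.4-fold. The 2 stomach calls were near the share over all genes and depended on the fit. *Lcn2*, the iron-siderophore binding lipocalin, was higher in stomach (log2 difference -3.15, limma adjusted p = 0.0076) and *Slurp1*, a secreted Ly6 protein of keratinocytes, too (-1.87, limma adjusted p = 0.0168). The *Lcn2* call was lost with quantile-normalized software-subtracted signal, and that of *Slurp1* there, with an offset of 50 and without the stomach array of mouse 1 or of mouse 2. The stomach values of *Slurp1* were 9.33, 8.72 and 7.93 in mice 1, 2 and 4.

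The receptor side of *2610528A11Rik* was not seen in these cultures. *Gpr15* stood well above background on none of the 6 arrays. In its list of 11 genes, *Gpr15* itself with mucosal chemokines and receptors, 2 (18.2%) were higher in esophagus by limma, 1 (9.09%) was higher in stomach and 8 did not pass, against 7.15% and 7.7% of all genes, with a median log2 difference of -0.09. *Cxcl14*, a chemokine of squamous epithelium, was higher in esophagus by at least 9.87-fold (limma adjusted p = 1.02e-05), and *Ccr9*, the receptor of a gut-homing chemokine, by 0.99 on the log2 scale (limma adjusted p = 0.00691). *Cxcl17*, a mucosal chemokine, was higher in stomach by at least 392.3-fold (limma adjusted p = 1.47e-06).

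Regulators of keratinocyte differentiation held calls in both directions. Of 18 transcription factors and receptors 10 (55.6%) were higher in esophagus by limma, 2 (11.1%) were higher in stomach and 6 did not pass, against 7.15% and 7.7% of all genes. The median log2 difference was 2.37. The esophagus count ran from 8 to 14 over the other fits. The AP-2 factors *Tfap2a* (7.70, limma adjusted p = 1.15e-07) and *Tfap2c* (at least 28.7-fold, limma adjusted p = 9.45e-07), the homeodomain protein *Hopx* (4.38, limma adjusted p = 0.00118) and the grainyhead-like factor *Grhl3* (4.27, limma adjusted p = 0.00198) led the list. *Tfap2a* was well above background on only 1 of 3 stomach arrays, so its difference is largely one from the floor of the array. All 10 were lowest in the esophagus array of mouse 4 (9 of 10 with either scaling of the software-subtracted signal). The stomach calls were *Notch1* and the brightest *Trp63* probe, and without the stomach array of mouse 1 or of mouse 2 neither passed. The other *Trp63* probes were higher in esophagus, so this stomach call rests on the choice of the brightest probe.

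None of the genes around the chromosome 7 trio was called in esophagus. Within 250 kb on either side lay 37 other genes, of which none was higher in esophagus by limma (7.15% of all genes), 8 or 21.6% were higher in stomach (7.7% of all genes) and 29 did not pass. At an unadjusted p under 0.05, 1 gene was higher in esophagus, *Usf2* (0.70, limma adjusted p = 0.103), and it passed the adjusted test only without the stomach array of mouse 4. The median log2 difference of the neighbours was -0.08. The nearest on either side were *Tmem147os* 10.1 kb before the *Sbsn* probe, with a difference of -0.11 (limma adjusted p = 0.821), and *Ffar2* 29.4 kb beyond the *Krtdap* probe, which stayed near background on all 6. *Tmem147*, a membrane protein of the endoplasmic reticulum 27.9 kb before *Sbsn*, was bright in both tissues and did not pass either (-0.44, limma adjusted p = 0.187).

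The neighbours called in stomach were scattered through the window. *2200002J24Rik*, 55.6 kb before *Sbsn*, was at least 5.99-fold higher in stomach (limma adjusted p = 5.43e-05), and *Atp4a*, the catalytic subunit of the proton pump of parietal cells 31.7 kb before it, at least 1.94-fold (limma adjusted p = 0.0177), a call lost without the stomach array of mouse 2. Farther out *Fxyd5*, a regulator of the sodium pump, was lower in esophagus (log2 difference -2.43, limma adjusted p = 0.000232), as were *Proser3* (-2.33, limma adjusted p = 0.000439) and *Lsr*, a receptor of tricellular junctions, (-1.47, limma adjusted p = 0.00115). *Zbtb32* (-1.12, limma adjusted p = 0.0265), *Cd22* (-1.09, limma adjusted p = 0.0286) and *Hspb6* (-0.62, limma adjusted p = 0.0482) passed only narrowly and were lost in 8 or more of 16 other fits. Among these fits the slide block and the one without the esophagus array of mouse 4 are the same. With the mouse, which pairs the cultures, as a block, 6 of the 8 calls were left, without *Hspb6* and *Zbtb32*. With 1 array left out the stomach calls numbered 4 to 6, with 4 left without the stomach array of mouse 2 and 5 without the stomach array of mouse 1 or the esophagus array of mouse 1 or of mouse 4.

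**Figure D4:**
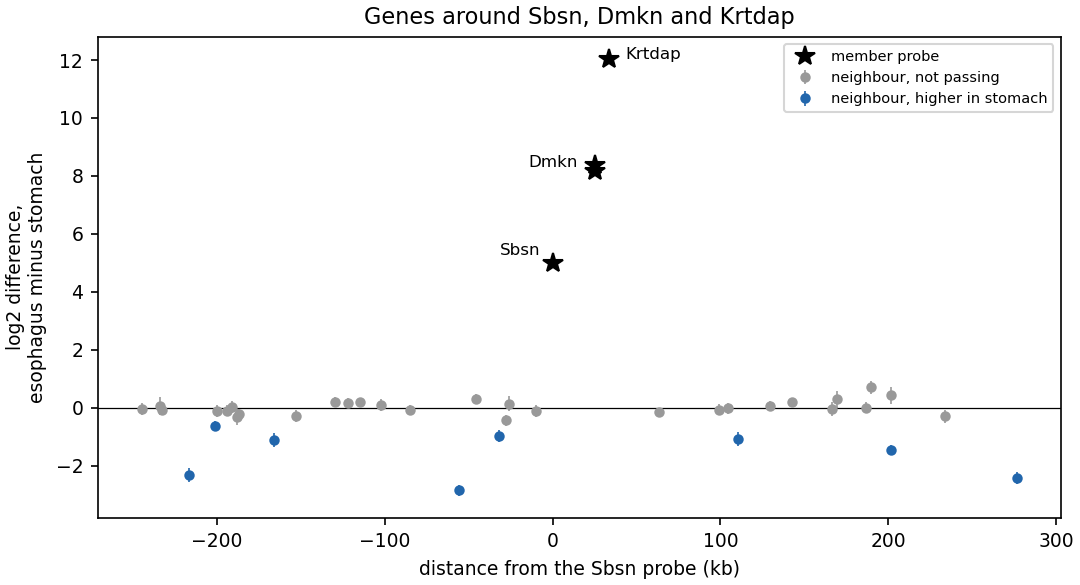
Log2 difference, esophagus minus stomach (vertical axis), of genes within 250 kb of the *Sbsn*, *Dmkn* and *Krtdap* probes, by distance from the *Sbsn* probe in kb. Stars are the probes of the 3 genes, grey points neighbours that did not pass the limma test, blue points neighbours higher in stomach, and bars the standard error. The stars lie at 4.98 to 12.05, where the *Krtdap* star is its measured difference from a stomach signal that was not well above background, and every neighbour lies below 1.

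Around *2610528A11Rik* lay 6 other genes within 250 kb on chromosome 14, of which 2 were higher in esophagus (7.15% of all genes) and none in stomach (7.7% of all genes). *Cdhr1*, a cadherin known from photoreceptors 23.9 kb from the *2610528A11Rik* probe, was higher by at least 6.64-fold (limma adjusted p = 0.000973), and *Ghitm*, a mitochondrial inner membrane protein 19.7 kb away on the other side, by 1.09 on the log2 scale (limma adjusted p = 0.0134). The difference between the 2 loci was not tested, and *Ghitm* did not pass without the stomach array of mouse 1 or of mouse 2.

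Genes were listed by the smallest root mean square (RMS) difference of log2 values over the 6 arrays, each gene centered on its own mean. Candidates were 16575 genes well above background in esophagus, the tissue where the 4 genes are high, so a stomach signal was not required. The measure is mostly the size of the tissue difference the genes were chosen by. Of the 5 nearest genes 3 for *Dmkn*, 3 for *Sbsn*, 3 for *Krtdap* and 5 for *2610528A11Rik* stood well above background on no stomach array, nor did *Krtdap* itself, so their distances set an esophagus level against the floor of the array and describe these values without ranking shared patterns. For *Krtdap* the 5 listed genes were the keratins *Krt5*, *Krt14*, *Krt17*, *Krt6a* and *Krt6b*, and nothing is read from their order. For *2610528A11Rik* they were, in no order, *BC100530*, *Col17a1*, a collagen of hemidesmosomes, *Gm5476*, *Serpinb11* and *Tgfbi*. For *Sbsn* they were, in no order, *4833423E24Rik*, the epoxide hydrolase *Ephx3*, *Igfbp2*, an IGF-binding protein, an unnamed transcript ENSMUST00000121423.1 and an intergenic interval on chromosome 13. For *Dmkn* they were, in no order, *Casp1*, *Dapl1*, *Ptprz1*, *S100a8* and *Vsig8*. With the mean intensities and an offset of 16, 5 of the 5 nearest genes of *Krtdap*, 4 of *Sbsn*, 4 of *2610528A11Rik* and 3 of *Dmkn* were found again.

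The start sites of the 4 genes were compared for motifs of factors known in keratinocytes, as the 3 genes of the chromosome 7 locus were all high in esophagus. Sequences are those of RefSeq on GRCm38.p6, a later build than the mm9 of the array, and all 4 genes were matched by symbol, with 6 start sites in all. Windows ran from 250 bases before to 50 bases after each start, and both strands were read. Shown are the 150 bases before the start, with the AP-1 motif TGANTCA and the TATA box TATAAA in capitals. The second *Dmkn* start, 2 bases after the first, is left out.
Sbsn, chr7:30751321-30751470, plus strand: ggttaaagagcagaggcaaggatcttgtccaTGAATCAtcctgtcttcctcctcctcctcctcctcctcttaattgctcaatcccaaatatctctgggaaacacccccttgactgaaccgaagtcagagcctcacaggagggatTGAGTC
Dmkn, first start, chr7:30763606-30763755, plus strand: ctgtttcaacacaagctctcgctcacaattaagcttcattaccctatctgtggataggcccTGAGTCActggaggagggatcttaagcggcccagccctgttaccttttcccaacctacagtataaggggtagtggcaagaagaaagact
Dmkn, last start, chr7:30776255-30776404, plus strand: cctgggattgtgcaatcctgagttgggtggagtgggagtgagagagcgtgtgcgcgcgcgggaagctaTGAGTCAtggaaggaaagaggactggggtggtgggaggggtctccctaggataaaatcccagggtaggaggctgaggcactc
Krtdap, chr7:30787755-30787904, plus strand: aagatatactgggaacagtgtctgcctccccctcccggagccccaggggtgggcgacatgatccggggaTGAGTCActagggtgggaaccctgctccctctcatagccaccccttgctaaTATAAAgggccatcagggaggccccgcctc
2610528A11Rik, chr14:37110102-37110251, minus strand: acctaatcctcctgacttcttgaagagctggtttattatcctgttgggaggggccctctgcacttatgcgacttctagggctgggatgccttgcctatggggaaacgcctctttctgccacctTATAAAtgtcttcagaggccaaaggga

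All 5 start sites of the chromosome 7 trio held TGANTCA, the motif bound by AP-1 (dimers of Jun and Fos proteins), and the start of *2610528A11Rik* did not. Of 32851 RefSeq promoter windows 7.81% held it. In *Krtdap* it lay at -81 to -75 from the start site, in *Dmkn* at -89 to -83 from the first start and at -82 to -76 from the last one, 12649 bases downstream. *Sbsn* had it at -119 to -113 and again across the start site itself, from -6 to 1, where the last base falls outside the sequence shown. TATAAA stood at -30 to -25 in *Krtdap* and at -27 to -22 in *2610528A11Rik*, and 13.6% of all windows held it.

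The KLF motif GGGNGTG was in 2 of the 6, against 29.2% of all windows, in *Sbsn* and at the last *Dmkn* start. A loose form of the p63 motif was in 3 of the 6, against 45.2%, and in *Sbsn* it overlapped the first AP-1 match. The grainyhead-like motif AACCNGTT (2.09% of all windows), the ETS motif AGGAAGT (9.35%) and a strict p63 motif (0.712%) were in none of the 6. The *Dmkn* starts overlap almost wholly for the first pair and the trio is 1 locus, so the starts are not independent, and a match is a description of the letters, not of binding.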

How the data were processed

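Per the labels and file headers, spots were quantified in Agilent Feature Extraction 11.5.1.1. Deposited scanner files give raw intensity values, local background, a background-subtracted intensity and flags per spot, not normalized between arrays. The log2 values deposited by the authors, corrected for background and quantile normalized, were used as they stand. They were matched by normexp (offset 15, median intensities) and quantile normalization to within 0.0726, median 0.00433. Each of the 2029 missing values was a spot marked as an outlier, each of the 6 columns was nearest to its own array, and column medians were 5.24 to 5.25. Flags for spots well above background came from the scanner files.

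In R 4.3.3 with limma 3.58.1, lmFit and eBayes compared esophagus with stomach per probe over the 6 arrays with no block term. P-values were adjusted after Benjamini-Hochberg across the 55681 probes at a threshold of 0.05, and the fit was tested on simulated data. A gene was read by its brightest probe on average. Where no array of a tissue had a probe well above background, a bound is given. Every such bound, written as at least, is one on the deposited values and need not hold under another background correction. No p-value is given for *Dmkn*, *Sbsn*, *Krtdap* and *2610528A11Rik*, and they were left out of the counts of the gene lists and neighbours. These genes and all gene lists were chosen with earlier results of these data known. Named besides were neighbours that passed within 250 kb and the up to 4 passing genes of each list with the largest difference. The 5 genes of smallest RMS difference were named too. Single genes were added after their values were seen (*Usf2*, *Tmem147*, *Tmem147os*, *Ffar2*, *Il1f6*, *Wfdc12*, *Slurp1*, *Lcn2*, *Gpr15*, *Notch1*, *Trp63*, *Epcam*, *Krt13*, *Krt15*, *Vsig8*, *Muc5ac* and *Pgc*).

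The labels number the mouse of each culture, so numbers pair the tissues. Deviations from the tissue means correlated within a mouse across probes with r = 0.042, 0.023 and -0.002, and between mice with -0.091 to 0.04. Alternatives were other background corrections and scalings, each array left out, outlier-marked spots kept, a block for the mouse or for the slide, a filter on dim probes, eBayes with a trend and robust variances, and a window of 100 kb. The block for the slide is the same fit as leaving out the esophagus array of mouse 4, which is alone on its slide. Promoters came from RefSeq (GRCm38.p6). Protein sequences were not analysed here. Precision is limited by the 3 arrays per tissue.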

Additional observations from a re-analysis of the deposited data

How the results depend on the processing

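All 5 probes of *Dmkn*, *Sbsn*, *Krtdap* and *2610528A11Rik* stayed higher in esophagus under each of 14 alternatives. Not all of these are separate checks. The block for the mouse leaves the differences as they are by design, and the block for the slide repeats the fit without the esophagus array of mouse 4. With an offset of 50, with 75th percentile scaling of the software-subtracted signal and with its quantile normalization, the log2 difference of *Krtdap* was 10.84, 15.31 and 15.10 and that of *2610528A11Rik* 9.03, 10.41 and 10.33. These settings treat signals near background differently. The 75th percentile scaling also moved the median of all probes to 0.19. With 1 array left out the difference was 7.54 to 8.73 and 7.72 to 8.87 for the *Dmkn* probes, 4.52 to 5.62 for *Sbsn*, 11.97 to 12.18 for *Krtdap* and 9.51 to 9.75 for *2610528A11Rik*. Each mouse gave 1 array of either tissue, so a block for the mouse cannot change these differences (8.18, 8.36, 4.98, 12.05 and 9.64). It can change the tests, and with it the chromosome 7 neighbours higher in stomach numbered 6 instead of 8.

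Counts of genes higher in stomach were less stable. Among secreted and calmodulin-like proteins 2 became 1 with an offset of 50 and 0 with quantile-normalized software-subtracted signal (1 to 3 with 1 array left out). Among regulators 2 became 0 under both of these settings, 1 with 75th percentile scaling and 1 with the slide as a block (0 to 2 with 1 array left out). In the GPR15 list 1 became 2 with 75th percentile scaling (1 to 2 with 1 array left out). Chromosome 7 neighbours higher in stomach fell from 8 to 5 with quantile-normalized software-subtracted signal (4 to 6 with 1 array left out). They were also 5 with the slide as a block, which is the fit without the esophagus array of mouse 4. The window of 100 kb held fewer genes, and 3 of its 12 (25%) were higher in stomach against 8 of 37 (21.6%). Chromosome 7 neighbours higher in esophagus ranged from 0 to 1. Chromosome 14 neighbours higher in esophagus ranged from 1 to 2 and all genes higher in esophagus from 1349 to 2611 with 1 array left out, lowest without the stomach array of mouse 1. The cause was not tested.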

Other observations

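The uneven *Dmkn* signal of the stomach arrays did not follow *Krt13* and *Krt15*, squamous keratins that were dim there and were picked after their values were seen. *Dmkn* was highest in the stomach organoids of mouse 1, whereas *Krt13* read 5.38, 5.12 and 6.35 and *Krt15* 5.30, 5.05 and 6.22 in mice 1, 2 and 4, both highest in mouse 4. Of the 8 squamous markers other than *Trp63*, whose brightest probe was higher in stomach, 3, 0 and 5 were well above background on the stomach arrays of mice 1, 2 and 4, with a summed linear signal of 264.6 to 410.6 there against 475618 to 574711 on the esophagus arrays. *Krtdap*, next to *Dmkn* on the chromosome, was not well above background on any of the 3. Other genes ran in the order of *Dmkn*, such as *Vsig8* (7.84, 7.30 and 5.81 in stomach organoids of mice 1, 2 and 4) and *Slurp1* (9.33, 8.72 and 7.93). *Vsig8* is 1 of the 5 genes listed as nearest to *Dmkn* on these same arrays, and *Slurp1* was picked after its values were seen. The share of all genes in this order was not counted, so nothing is read from these examples. Gastric markers went both ways, *Muc5ac* with 15.65, 15.03 and 13.26 and *Pgc* with 13.15, 13.94 and 14.66. The stomach culture of mouse 4 alone was harvested on day 7. Whether squamous cells or the harvest day had a part in the stomach *Dmkn* signal was not tested.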
